A study of Homo sapiens with 15 samples.

Results

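Gene expression was compared between 4 base-edited lines of TF-1 and the Parental line they were made from, and the changes that had one sign in all 4 edited lines are described. TF-1 is a human erythroleukaemia cell line that depends on a cytokine such as GM-CSF for growth. The edited lines carried IDH1R132H, IDH2R140Q, IDH2R140W or IDH2R172K and grew without GM-CSF, whereas the medium of the Parental cells held 2 ng/ml of it. Each of these 5 groups had 3 libraries, so that 12 edited libraries and 3 Parental libraries made up all 15 libraries of the series. The base medium of every group was RPMI-1640, with 10% FBS and antibiotics at 1%. Every edited line differed from Parental in both its IDH allele and its medium, so genotype and absence of GM-CSF cannot be told apart in any comparison below. The labels do not say whether a line was 1 clone or a pool, nor what share of its alleles was edited.

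IDH1 in the cytosol and IDH2 in the mitochondria convert isocitrate to 2-oxoglutarate and make NADPH. Mutations at the arginines that bind the substrate, which are found in acute myeloid leukaemia, give the enzyme a new reaction that makes 2-hydroxyglutarate from 2-oxoglutarate. 2-Hydroxyglutarate inhibits dioxygenases that use 2-oxoglutarate, among them the TET enzymes of DNA demethylation and the JmjC histone demethylases. GM-CSF acts through a receptor with a ligand-binding alpha chain and a common beta chain, and JAK2 bound to that receptor activates STAT5, ERK and PI3 kinase signalling. STAT5 then induces genes such as CISH, PIM1 and the SOCS genes, several of which damp the signal.

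The codon edited in the IDH1 line is shown in the reference sequence, because it defines that line. The coding strand is given, with the arginine codon in capitals. It lies in the fourth exon of IDH1 on the minus strand of hg38, with gene models of GENCODE release 29, and the window ends at the exon's edge or 24 bases from the codon.
IDH1 codon 132, chr2:208248369-208248413: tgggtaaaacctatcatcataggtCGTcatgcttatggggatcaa
IDH2R140Q and IDH2R140W were made at the same codon. The deposited table gives expression per gene and does not show the edited base.

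Expression is given in TPM, a transcript abundance divided by transcript length and scaled to a fixed total per library, which keeps no read number. Depth is therefore unknown, and values carry no counting interval. Per library, 12796 to 13792 symbols reached 1 TPM, and libraries of the same group had a Pearson's r of 0.974 to 0.990 across genes, which are not independent points. The share of TPM in ribosomal protein genes was 22.1% in IDH2R140W replicate 3 and 21.1% in Parental replicate 2, against 13.8% to 18.6% in the other edited libraries and 16.8% and 17.9% in the other Parental libraries. Whether replicates were separate cultures is not in the labels, and p-values thus rest on the spread between libraries, which may be technical. In such bulk libraries fewer cells of a type and less RNA per cell cannot be told apart.

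Differences are given on the log2(TPM + 1) scale with their standard error, as the mean of the 4 edited group means minus Parental, and are too small for genes at low level. The criteria for a change in the mean were an adjusted p under 0.05 from limma and a difference of at least 2-fold. A gene rose or fell in all 4 lines where, in addition, each line differed from Parental in the same direction with an adjusted p of its own under 0.05. The 4 comparisons share the 3 Parental libraries, so a single low or high Parental value moves all of them. Of 14881 symbols tested, 835 changed in the mean (5.61%), 593 upwards (3.98%) and 242 downwards (1.63%). Of these 835, 84 did not have the same sign in every line, 246 had it without passing the test in each, and 505 changed in all 4 lines (3.39% of symbols tested). The 505 were made up of 350 rises (2.35%) and 155 falls (1.04%). At least 2-fold in every single line were 118 rises (0.793%) and 72 falls (0.484%). Taken one by one, IDH1R132H had 7.74% of symbols changed upwards and 3.09% downwards, IDH2R140Q 7.56% and 2.47%, IDH2R140W 2.68% and 2.1%, and IDH2R172K 6.36% and 2.96%.

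All 12 edited libraries lay above the 3 Parental libraries for 326 of the 350 rises and below them for 150 of the 155 falls, against 7.66% and 3.54% of all tested symbols. These genes were called from the same libraries, so the separation follows largely from the criteria and adds no support. The median tested gene was 0.14 higher in the edited lines than in Parental. Median-ratio scaling removed this shift and left 258 rises and 238 falls in all 4 lines, and quantile normalisation left 236 and 232, so the share of rises was 69.3% as reported, 52.0% under median-ratio scaling and 50.4% under quantile normalisation. Without the 2 libraries with the most ribosomal protein RNA, IDH2R140W replicate 3 and Parental replicate 2, the counts were 324 rises and 161 falls. Without the IDH2R140W line, 644 genes rose and 199 fell in the other 3.

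A shared direction did not mean a shared size. The edited lines differed among themselves in 396 of the 505 genes (78.4%) by an F test, against 57.3% of all tested symbols. That test compares only the edited lines with each other, but its spread between libraries was estimated from all 15 libraries. The change was smallest in IDH2R140W for 235 of the 505 genes and largest in IDH1R132H for 176, in IDH2R140Q for 146, in IDH2R172K for 144 and in IDH2R140W for 39. The median rise among the 350 was 1.5 in both IDH1R132H and IDH2R140Q, 1.38 in IDH2R172K and 1.05 in IDH2R140W.

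**Figure D1:**
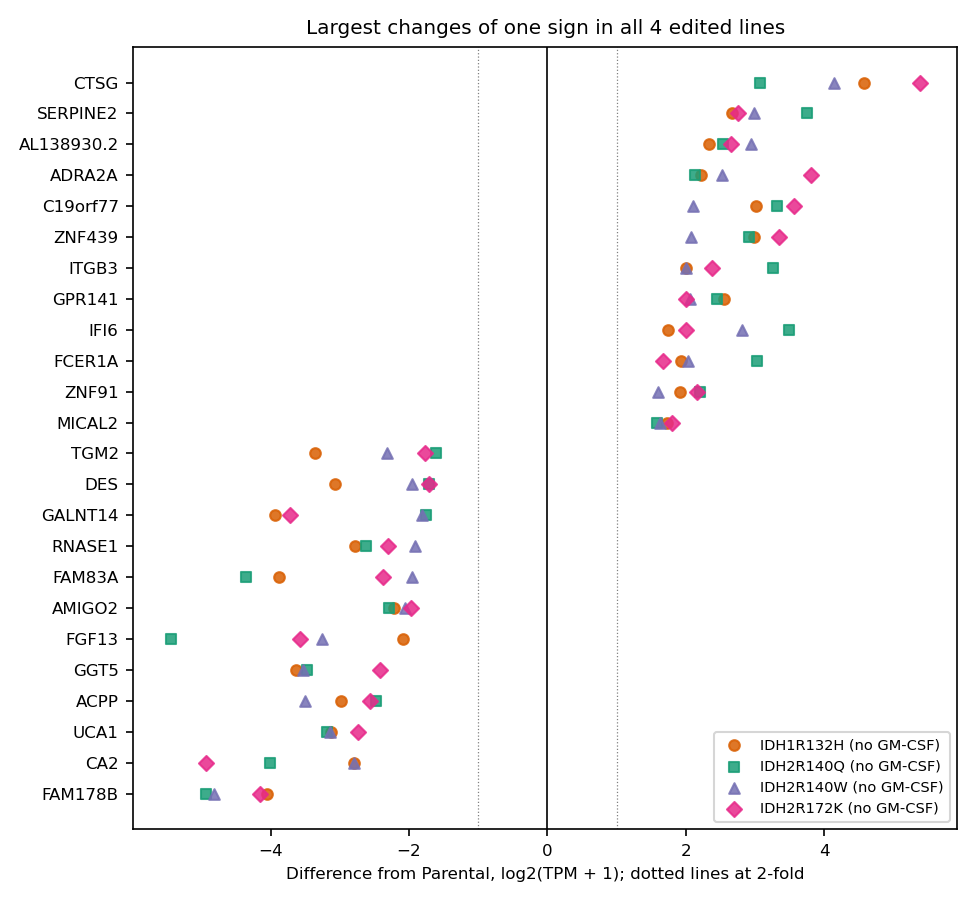
Difference of each edited line from Parental on the log2(TPM + 1) scale for the 12 rises and 12 falls that were largest in the line where they were smallest. They were picked among genes with at least 10 TPM on the higher side and no overlap between edited and Parental libraries. Each symbol is 1 line (mean of 3 libraries minus the mean of 3 Parental libraries), and every point lies beyond the dotted lines of a 2-fold difference.

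Among the largest shared rises, ranked by the line with the smallest difference, were a protease of neutrophil and mast cell granules, a protease inhibitor and an adrenergic receptor. The 12 rises and 12 falls named as largest were picked among genes whose edited and Parental libraries did not overlap. Their separation therefore follows from the choice and adds no support. CTSG, which encodes cathepsin G (chr14:24573522-24576260), lay between 8.96 and 60.2 TPM in the 12 edited libraries (median 29.9), against 0.43, 0.97 and 0 TPM in the Parental libraries. Every edited library was above every Parental library, and the difference was 4.29 ± 0.16 (adjusted p = 1.66e-10). By line it was 4.57 in IDH1R132H, 3.07 in IDH2R140Q, 5.38 in IDH2R172K and 4.13 in IDH2R140W. SERPINE2, the secreted inhibitor protease nexin-1 (chr2:223975112-224039319), lay between 20.9 and 54.5 TPM in the 12 edited libraries (median 29.9), against 3.37, 2.69 and 3.23 TPM in the Parental libraries. Its groups did not overlap, and the difference of 3.04 ± 0.12 (adjusted p = 5.33e-10) was largest in IDH2R140Q. ADRA2A, the alpha-2A adrenergic receptor (chr10:111077163-111080907), lay between 13 and 49.2 TPM in the 12 edited libraries (median 16.2), against 2.54, 2.32 and 2.37 TPM in the Parental libraries. It differed by 2.67 ± 0.08 (adjusted p = 6.57e-11), with the highest mean, 46.8 TPM, in IDH2R172K.

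FCER1A, a chain of the IgE receptor with high affinity on mast cells and basophils (chr1:159289714-159308224), was the most abundant of the 12 largest rises. It lay between 245 and 680.1 TPM in the 12 edited libraries (median 309), against 76.5, 86 and 70.3 TPM in the Parental libraries, and rose by 2.16 ± 0.06 (adjusted p = 2.34e-11). IFI6, an interferon-induced protein (chr1:27666061-27672218), lay between 121 and 431 TPM in the 12 edited libraries (median 197), against 32.8, 39.7 and 36.7 TPM in the Parental libraries. It rose by 2.51 ± 0.06 (adjusted p = 1.63e-11), most in IDH2R140Q and least in IDH1R132H. ITGB3, the integrin beta-3 chain of the platelet fibrinogen receptor, was summed from 2 rows of the table. It lay between 16.5 and 64.6 TPM in the 12 edited libraries (median 32.2), against 6.68, 3.56 and 7.24 TPM in the Parental libraries, a difference of 2.41 ± 0.18 (adjusted p = 1.78e-07). The other rises of this group were C19orf77 (now SMIM24), by 3.0 ± 0.10 (adjusted p = 8.48e-11), the orphan receptor GPR141, by 2.26 ± 0.13 (adjusted p = 1.15e-08), MICAL2, a monooxygenase that acts on actin, by 1.69 ± 0.20 (adjusted p = 1.37e-05), the zinc finger genes ZNF439, by 2.83 ± 0.14 (adjusted p = 4.06e-09), and ZNF91, by 1.97 ± 0.13 (adjusted p = 5.98e-08), and the transcript listed as AL138930.2, by 2.61 ± 0.36 (adjusted p = 5.57e-05). For MICAL2 and AL138930.2 the edited lines did not differ among themselves at an adjusted p of 0.05 (F test, 0.862 and 0.653).

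Ranked by the line with the smallest difference, the largest shared falls were in FAM178B, in the carbonic anhydrase gene CA2 and in the noncoding RNA UCA1. FAM178B (chr2:96875882-96986592) lay between 0.68 and 3.37 TPM in the 12 edited libraries (median 1.68), against 62.5, 46.4 and 62.8 TPM in the Parental libraries, a difference of -4.49 ± 0.15 (adjusted p = 8.34e-11). All edited libraries were far below the Parental ones, and the lines differed from Parental by -4.05 in IDH1R132H, -4.93 in IDH2R140Q, -4.16 in IDH2R172K and -4.81 in IDH2R140W. CA2, the carbonic anhydrase of red cells (chr8:85463852-85481493), lay between 0.47 and 9.3 TPM in the 12 edited libraries (median 5.27), against 60.6, 60.7 and 56.2 TPM in the Parental libraries. It fell most in IDH2R172K, to a mean of 1.01 TPM, and the difference over the 4 lines was -3.63 ± 0.16 (adjusted p = 1.36e-09). UCA1, a long noncoding RNA (chr19:15828206-15836326), lay between 0.04 and 0.96 TPM in the 12 edited libraries (median 0.48), against 10.3, 10.1 and 12.3 TPM in the Parental libraries. Its difference of -3.05 ± 0.17 (adjusted p = 8.85e-09) was much the same in each line, at -3.13 in IDH1R132H, -3.18 in IDH2R140Q, -2.74 in IDH2R172K and -3.15 in IDH2R140W, and the F test among lines gave an adjusted p of 0.229.

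TGM2, the crosslinking enzyme transglutaminase 2 (chr20:38127387-38166578), had the highest Parental level of the 12 falls. It lay between 14.5 and 62.1 TPM in the 12 edited libraries (median 44.1), against 208, 144 and 209 TPM in the Parental libraries, and fell, with a difference of -2.27 ± 0.13 (adjusted p = 1.04e-08). FAM83A lay at 1.97 to 18.7 TPM (median 8.45) in edited libraries and at 74.3, 61.9 and 69.9 TPM in Parental libraries, a difference of -3.14 ± 0.13 (adjusted p = 6.78e-10). FGF13, a fibroblast growth factor homologue that stays in the cell, lay at 0 to 9.62 TPM (median 3.16) in edited libraries and at 43.6, 39.7 and 46.6 TPM in Parental libraries, a difference of -3.59 ± 0.12 (adjusted p = 7.94e-11). Neither gene had an edited library within the Parental range, and both genes had their lowest mean in IDH2R140Q. GGT5, a gamma-glutamyl transferase, differed by -3.26 ± 0.12 (adjusted p = 1.66e-10), ACPP (now ACP3), a phosphatase, by -2.88 ± 0.13 (adjusted p = 2.12e-09), and GALNT14, an enzyme of O-linked glycosylation, by -2.81 ± 0.16 (adjusted p = 1.35e-08). The cell adhesion gene AMIGO2 differed by -2.14 ± 0.11 (adjusted p = 7.36e-09), the secreted ribonuclease RNASE1 by -2.41 ± 0.15 (adjusted p = 2.72e-08), and DES, which encodes desmin, by -2.11 ± 0.19 (adjusted p = 1.16e-06). CELA3B, a pancreatic elastase gene, was listed at 0 in all 12 edited libraries and at 5.86, 5.73 and 5.35 TPM in the Parental libraries, so no fold change is given.

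The edited genes themselves did not meet the criteria for a change in all 4 lines. IDH1 lay between 30.9 and 67 TPM in the 12 edited libraries (median 37.3), against 66.3, 70.7 and 73.9 TPM in the Parental libraries. It was lower in every line, but its difference of -0.76 ± 0.07 (adjusted p = 2.65e-06) was under 2-fold in the mean. Group means were 36.8 TPM in IDH1R132H, 60.3 in IDH2R140Q, 37.7 in IDH2R172K and 34.6 in IDH2R140W. IDH2R140Q was nearest to Parental, and the other 3 lines were close to each other. IDH2 lay between 30.0 and 75.8 TPM in the 12 edited libraries (median 48.1), against 52.2, 49.9 and 56.2 TPM in the Parental libraries, and had no common sign, with means of 52.3 TPM in IDH1R132H, 74.7 in IDH2R140Q, 31.8 in IDH2R172K and 45.4 in IDH2R140W. Of 7 IDH and 2-hydroxyglutarate enzymes tested, including D2HGDH, a dehydrogenase that breaks 2-hydroxyglutarate down, 0 rose and 0 fell in all 4 lines. Over all tested genes the shares were 2.35% and 1.04%.

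Genes for the enzymes that 2-hydroxyglutarate inhibits also had no shared change. Of 42 dioxygenases that use 2-oxoglutarate, 0 rose and 0 fell in all 4 lines, against 2.35% and 1.04% of tested genes. At those shares a list of this size would hold few such genes or none, so 0 sets it little apart. In every line 14 were higher and 5 lower without meeting the criteria, and 23 had mixed signs. Over all tested symbols, 33.2% were higher and 14.2% lower in every line whatever the p. Of 15 genes of DNA methylation and demethylation, 0 rose and 0 fell. TET1 lay at 0.99 to 2.12 TPM (median 1.91) in edited libraries and 3.73, 2.08 and 3.39 TPM in Parental libraries, a difference of -0.55 ± 0.15 (adjusted p = 0.00805). TET2 lay at 2.53 to 6.28 TPM (median 4.62) in edited libraries and 3.38, 2.11 and 4 TPM in Parental libraries, a difference of 0.51 ± 0.17 (adjusted p = 0.0308). Both had one sign in all 4 lines and their groups overlapped. TET3 and DNMT3B had no common sign. The TCA cycle and glutamine enzymes, 25 tested, and the enzymes of branched-chain amino acid breakdown, 18 tested, likewise held 0 rises and 0 falls in all 4 lines.

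Few receptors and relays of cytokine signalling changed in all 4 lines, as was so for all tested genes (3.39%). Of 24 receptor chains tested, IL10RA rose and TNFRSF1B fell in all 4 lines (4.17% each, against 2.35% and 1.04% of tested genes). Of 30 signal transducers 0 rose and 0 fell. CSF2RB, the common beta chain of the GM-CSF, IL-3 and IL-5 receptors, lay between 52.2 and 186 TPM in the 12 edited libraries (median 118), against 77.3, 50.1 and 72.2 TPM in the Parental libraries. It was below Parental, at -0.27, in IDH1R132H and differed by 0.84 in IDH2R140Q, 0.87 in IDH2R172K and 1.32 in IDH2R140W. The alpha chains CSF2RA and IL3RA, and the erythroid factor GATA1, were listed at 0 in every library, as were PGK1 and TPI1, glycolytic enzymes of every cell, so nothing is read from these entries.

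TNFRSF1B, a TNF receptor, lay between 10.3 and 17.8 TPM in the 12 edited libraries (median 15.5), against 42.8, 36.4 and 43.9 TPM in the Parental libraries, a difference of -1.45 ± 0.08 (adjusted p = 9.62e-09). IL10RA, the ligand-binding chain of the IL-10 receptor, lay between 6.98 and 22.2 TPM in the 12 edited libraries (median 21.5), against 6.28, 5.15 and 6.42 TPM in the Parental libraries. It rose by 1.38 ± 0.11 (adjusted p = 2.78e-07), with 0.50 in IDH2R140W, and no longer met the criteria when IDH2R140W replicate 1 was left out. Among the transducers, 17 of 30 were higher in every line without meeting the criteria, with a list median of 0.38 beside 0.14 over all tested genes. Of all tested symbols, 33.2% were higher in every line whatever the p. AKT1, a kinase downstream of PI3 kinase, lay between 168 and 261 TPM in the 12 edited libraries (median 197), against 129.6, 89.1 and 119 TPM in the Parental libraries, and differed by 0.86 ± 0.09 (adjusted p = 7.36e-06). The tyrosine kinase FES differed by 0.84 ± 0.09 (adjusted p = 8.28e-06) and TYK2, a JAK kinase of interferon receptors, by 0.54 ± 0.07 (adjusted p = 2.64e-05). In these 3 genes all 12 edited libraries lay above the Parental ones, with mean differences under 2-fold. Without the IDH2R140W line, 3 of the 30 transducers rose. STAT5A, at 151 to 191 TPM (median 170.1) in edited libraries and 167, 134 and 167 TPM in Parental libraries, differed by 0.12 ± 0.07 (adjusted p = 0.202), and STAT5B by 0.05 ± 0.09 (adjusted p = 0.653).

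Of the genes that STAT5 induces, SOCS3 and ID1 fell in all 4 lines and the others did not meet the criteria. Of 17 STAT5 targets tested, 0 rose and 2 fell in all 4 lines (11.8%, against 1.04% of tested genes), and the list median was -0.11. The summed level of the list was 1782 to 2169 TPM in edited libraries and 2178 to 2366 TPM in Parental libraries, with no overlap. Abundant members such as ID1, given below, weigh most in this sum, and the part of ID1 in its difference was not tested. Of the members that did not meet the criteria, 4 were higher in every line, 4 were lower and 7 had mixed signs. CISH, a feedback inhibitor and a standard readout of STAT5, lay between 37.1 and 53 TPM in the 12 edited libraries (median 46.8), against 52.3, 47.2 and 48.1 TPM in the Parental libraries. The groups overlapped, and its difference was -0.11 ± 0.05 (adjusted p = 0.102). PIM1, a survival kinase, lay between 147 and 214 TPM in the 12 edited libraries (median 188), against 267, 215 and 258 TPM in the Parental libraries. All edited libraries were below the Parental ones, and the difference was -0.43 ± 0.06 (adjusted p = 9.82e-05), less than the 2-fold criterion. SOCS2 differed by -0.66 ± 0.09 (adjusted p = 3.34e-05) and BCL2L1, the survival gene for BCL-xL, by -0.11 ± 0.07 (adjusted p = 0.188).

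SOCS3, a feedback inhibitor of gp130 and other receptors, lay between 9.85 and 27.1 TPM in the 12 edited libraries (median 16.4), against 38.3, 29.4 and 39.1 TPM in the Parental libraries. It fell, with a difference of -1.04 ± 0.10 (adjusted p = 2.88e-06), close to the 2-fold limit. SOCS3 missed the criteria with a pseudocount of 5 and when Parental replicate 1 or 3, or the IDH1R132H or IDH2R140Q line, was left out. ID1, an inhibitor of helix-loop-helix factors that is also a target of BMP signals, lay between 98.7 and 257 TPM in the 12 edited libraries (median 159), against 427, 559.9 and 445 TPM in the Parental libraries. Its fall of -1.57 ± 0.07 (adjusted p = 1.20e-09) was -2.07 in IDH1R132H, -2.20 in IDH2R140Q, -0.90 in IDH2R172K and -1.12 in IDH2R140W. The upstream window of CISH holds 4 copies of the STAT motif TTCNNNGAA and is printed because CISH reads out the pathway that GM-CSF feeds. The motif was searched on both strands of the 250 bases before the gene start, in RefSeq sequence of GRCh38.p14, and was present in 7.77% of the 9281 tested genes with a window and in 1 of 10 STAT5 targets with one. Capitals mark the motif, and the window is chr3:50611775-50612024 on the minus strand.
CISH: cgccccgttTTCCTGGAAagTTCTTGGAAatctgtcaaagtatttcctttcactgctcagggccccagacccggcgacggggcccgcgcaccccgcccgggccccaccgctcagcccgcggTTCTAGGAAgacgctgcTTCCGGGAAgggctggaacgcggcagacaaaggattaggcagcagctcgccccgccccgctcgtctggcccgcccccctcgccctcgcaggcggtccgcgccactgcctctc

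ERK feedback and immediate early genes were split. Of 24 tested, FOSB and DUSP4 rose and ETV1 and ETV4 fell in all 4 lines (8.33% each way). ETV4, an ETS factor induced by ERK signals, lay between 17.1 and 25.6 TPM in the 12 edited libraries (median 20.9), against 56.9, 44.4 and 53.5 TPM in the Parental libraries, and fell, with a difference of -1.29 ± 0.08 (adjusted p = 1.75e-08). FOSB, an AP-1 subunit, lay at 5.16 to 11.5 TPM (median 7.79) in edited libraries and 3.56, 1.6 and 2.68 TPM in Parental libraries, a rise of 1.32 ± 0.18 (adjusted p = 5.68e-05) that was lost with a pseudocount of 5. ETV1 and the ERK phosphatase DUSP4 were below 5 TPM in every library. Both missed the criteria with a pseudocount of 5. ETV1 also missed them without IDH2R172K replicate 1, and DUSP4 under quantile normalisation and without the IDH2R172K line. DUSP6 and SPRY2, feedback inhibitors of the same pathway, had no common sign, and EGR1 lay at 6.23 to 11.1 TPM (median 7.95) in edited libraries and 8.15, 6.52 and 8.64 TPM in Parental libraries.

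Among growth factors made by the cells, 0 of 14 tested rose and 0 fell in all 4 lines, against 2.35% and 1.04% of tested genes. CSF2, the gene for GM-CSF itself, differed from Parental by -1.35 in IDH1R132H and -1.05 in IDH2R140Q, and by 0.93 in IDH2R140W and 0.83 in IDH2R172K. LIF and OSM, ligands that signal through gp130, were above Parental in IDH2R140W and below it in the other 3 lines. TGFB1, a growth inhibitor of many blood cells, was the most abundant of the list, at 484 to 653 TPM (median 547) in edited libraries and 296 ± 18.1 TPM in Parental libraries (SD, n = 3). It differed by 0.91 (adjusted p = 6.89e-10) with one sign in all 4 lines, just under 2-fold. Of 15 genes of the BCL2 family, 0 rose and 0 fell.

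**Figure D2:**
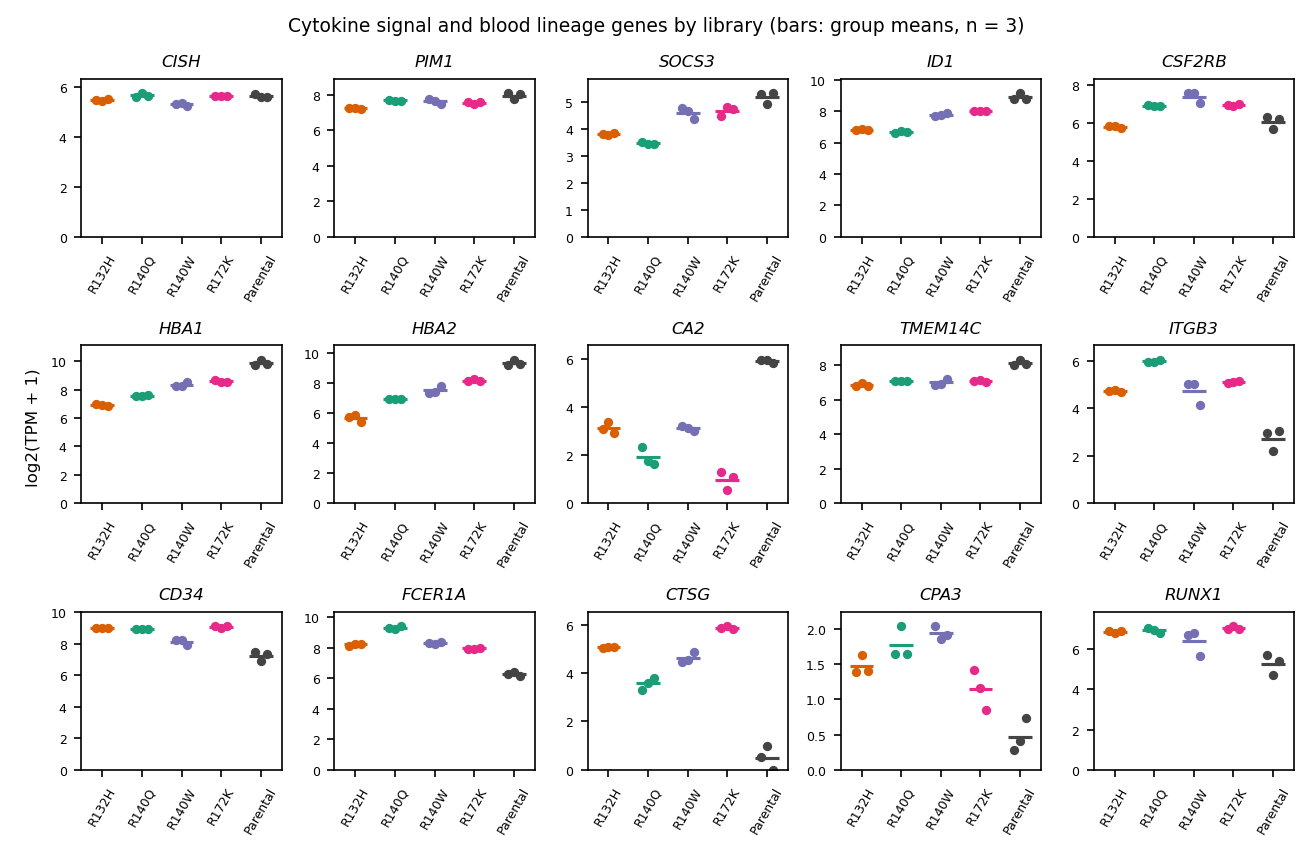
Expression of cytokine signal and blood lineage genes in each library as log2(TPM + 1), with bars at the group means (n = 3). Lines are written without the gene name. CISH overlaps the Parental level, SOCS3, ID1, the globins, CA2 and TMEM14C sit below it, and ITGB3, CD34, FCER1A, CTSG and CPA3 sit above it in every edited library.

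Globin genes fell in all 4 lines in most cases, and haem and other erythroid genes, with single exceptions, did not meet the criteria. Of 9 globin genes tested, 5 fell in all 4 lines (55.6%), 0 rose, and the list median was -2.25. HBA1 and HBA2, the alpha-globin genes, have nearly the same coding sequence, so reads can be split between them and their separate values are uncertain. HBA1 lay between 115 and 406 TPM in the 12 edited libraries (median 246), against 842, 1091 and 890.1 TPM in the Parental libraries, a difference of -2.01 ± 0.07 (adjusted p = 2.15e-10). HBA2 lay between 41.8 and 301 TPM in the 12 edited libraries (median 144), against 589, 745 and 605 TPM in the Parental libraries, a difference of -2.25 ± 0.10 (adjusted p = 1.49e-09). In both genes every edited library was below every Parental library, with the lowest levels in IDH1R132H and the highest in IDH2R172K. The embryonic genes HBZ, with a difference of -3.08 ± 0.16 (adjusted p = 5.88e-09), and HBE1, with -2.29 ± 0.15 (adjusted p = 4.28e-08), and the theta gene HBQ1, with -1.07 ± 0.11 (adjusted p = 2.76e-06), also fell.

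HBZ and HBE1 missed the criteria without Parental replicate 2 or without IDH2R172K replicate 2, which left 3 globin falls, and in IDH2R172K they differed by only -0.63 and -0.62. Both also missed them with a pseudocount of 0.1, and HBZ without IDH2R172K replicate 1 or with no filter on low values. HBQ1 missed the criteria with a pseudocount of 5 and without the IDH1R132H or IDH2R140Q line. HBG1 and HBG2, the fetal pair, were lower in every line, with -0.36 for HBG2 in IDH2R172K, without passing there. HBB and HBD had no common sign. Of 17 genes of haem synthesis and transport, TMEM14C, a mitochondrial membrane protein needed for haem synthesis, fell in all 4 lines. It lay between 110.1 and 150.2 TPM in the 12 edited libraries (median 132), against 260.2, 319 and 270.3 TPM in the Parental libraries, and the fall of -1.13 ± 0.08 (adjusted p = 6.88e-08) was alike in the lines, at -1.27 in IDH1R132H, -1.05 in IDH2R140Q, -1.06 in IDH2R172K and -1.13 in IDH2R140W. ALAS2, the erythroid enzyme of the rate-limiting step, was lower in 3 lines and higher in IDH2R172K. In the haem list 6 more genes were lower and 2 higher in every line without meeting the criteria, and the median was -0.24. Over all tested symbols, 14.2% were lower and 33.2% higher in every line whatever the p. The summed level of that list was 1474 to 2046 TPM in edited libraries and 2210 to 2292 TPM in Parental libraries, with no overlap. Of 29 erythroid regulators and membrane genes, CA2 fell and 0 rose.

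Some platelet, granule and progenitor genes rose in all 4 lines, and none of these lists held a shared fall. Of 14 megakaryocyte and platelet genes, ITGB3, GP1BB, PPBP and SELP rose in all 4 lines (28.6%, against 2.35% of tested genes) and 0 fell, with a list median of 0.90. PPBP, a platelet chemokine, lay between 1.14 and 38.9 TPM in the 12 edited libraries (median 6.36), against 0.55, 0 and 0.25 TPM in the Parental libraries, a rise of 2.72 ± 0.18 (adjusted p = 4.44e-08) with a mean of 38.2 TPM in IDH2R140Q and 1.5 in IDH2R140W. With a pseudocount of 5 the rise of PPBP missed the criteria. GP1BB, a chain of the von Willebrand factor receptor that overlaps a readthrough transcript of its neighbour, lay between 8.55 and 30.0 TPM in the 12 edited libraries (median 18.2), against 5.2, 6.62 and 5.54 TPM in the Parental libraries, and rose by 1.39 ± 0.11 (adjusted p = 3.63e-07). SELP, P-selectin, rose by 2.66 ± 0.12 (adjusted p = 2.10e-09), but by 0.52 in IDH2R140W. SELP missed the criteria in 7 alternatives, among them leaving out IDH2R140W replicate 1 or Parental replicate 2 or 3. ITGA2B, the partner of ITGB3, was higher by 0.44 (adjusted p = 3.82e-07).

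Of 10 granulocyte genes, CTSG and MMP9 rose in all 4 lines (20%, against 2.35% of tested genes) and 0 fell. The list as a whole was not raised, with a median of 0.02 beside 0.14 over all tested genes. Among its other members 5 had mixed signs, 2 were lower in every line and 1 was higher, without meeting the criteria. MMP9, a secreted gelatinase, lay between 2.04 and 27.3 TPM in the 12 edited libraries (median 13.8), against 0.36, 0.28 and 0.43 TPM in the Parental libraries. Its rise of 3.03 ± 0.08 (adjusted p = 2.39e-11) was 4.29 in IDH1R132H, 4.13 in IDH2R140Q, 2.45 in IDH2R172K and 1.24 in IDH2R140W. MPO, the main azurophil granule enzyme, lay at 0 to 1.62 TPM (median 0.24) in edited libraries and 1.81 ± 1.11 TPM in Parental libraries (SD, n = 3). Of 20 mast cell, basophil and eosinophil genes, FCER1A, SIGLEC6 and CPA3 rose (15%) and 0 fell, with a list median of 0.89. SIGLEC6, an inhibitory receptor of mast cells, lay between 2.85 and 12.4 TPM in the 12 edited libraries (median 5.26), against 1.44, 0.38 and 1.36 TPM in the Parental libraries, and rose by 1.81 ± 0.20 (adjusted p = 8.14e-06), a call lost with a pseudocount of 5. CPA3, the mast cell carboxypeptidase, lay at 0.8 to 3.1 TPM (median 2.1) in edited libraries and 0.21, 0.33 and 0.66 TPM in Parental libraries, a rise of 1.11 ± 0.15 (adjusted p = 4.11e-05). CPA3 missed the criteria in 5 alternatives. These were a pseudocount of 5, quantile normalisation, library weights, and leaving out IDH2R172K replicate 1 or the IDH2R140W line. The tryptases TPSAB1, TPSB2 and TPSD1 were highest in IDH2R140W, at 3.43, 4.01 and 3.80 above Parental, without meeting the criteria in all 4 lines, and of 11 monocyte genes 0 rose and 0 fell in all 4 lines.

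Of 13 stem and progenitor genes, CD34, RUNX1, MYCN, GPR56 (now ADGRG1) and ERG rose in all 4 lines (38.5%), 0 fell, and the list median was 1.12. CD34, the surface marker of progenitors, lay between 236 and 544 TPM in the 12 edited libraries (median 499), against 177, 118 and 163 TPM in the Parental libraries. All edited libraries were above the Parental ones, the difference was 1.53 ± 0.09 (adjusted p = 2.63e-08), and it was smallest in IDH2R140W, at 0.87. RUNX1, a core blood transcription factor, lay between 50.6 and 140.1 TPM in the 12 edited libraries (median 119), against 51.3, 25.4 and 41.3 TPM in the Parental libraries, and rose by 1.54 ± 0.20 (adjusted p = 4.02e-05). Its groups overlapped, since IDH2R140W replicate 3 fell below Parental replicate 1. MYCN lay between 1.89 and 20.9 TPM in the 12 edited libraries (median 11.2), against 0.65, 0.62 and 0.45 TPM in the Parental libraries, a rise of 2.64 ± 0.10 (adjusted p = 1.66e-10).

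GPR56, an adhesion receptor of stem cells whose groups overlapped, rose by 2.05 ± 0.15 (adjusted p = 1.45e-07), by 3.27 in IDH1R132H but 0.60 in IDH2R140W. GPR56 missed the criteria in 7 alternatives, among them leaving out IDH2R140W replicate 1 or 2 or Parental replicate 2. ERG, an ETS factor, lay at 35.2 to 84.4 TPM (median 58.8) in edited libraries and 31, 17 and 30.7 TPM in Parental libraries. It rose by 1.12 ± 0.18 (adjusted p = 1.94e-04) but lost the call in most alternatives, among them each scaling, the replicate block and the removal of any IDH1R132H, IDH2R140Q or IDH2R172K library. Parental replicate 2, the Parental library with the most ribosomal protein RNA, was the lowest of its group for CD34, RUNX1, ERG and GPR56, and without it 3 of the 13 rose. Of 23 HOX genes and cofactors, 1 rose in all 4 lines (4.35%) and 0 fell.

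**Figure D3:**
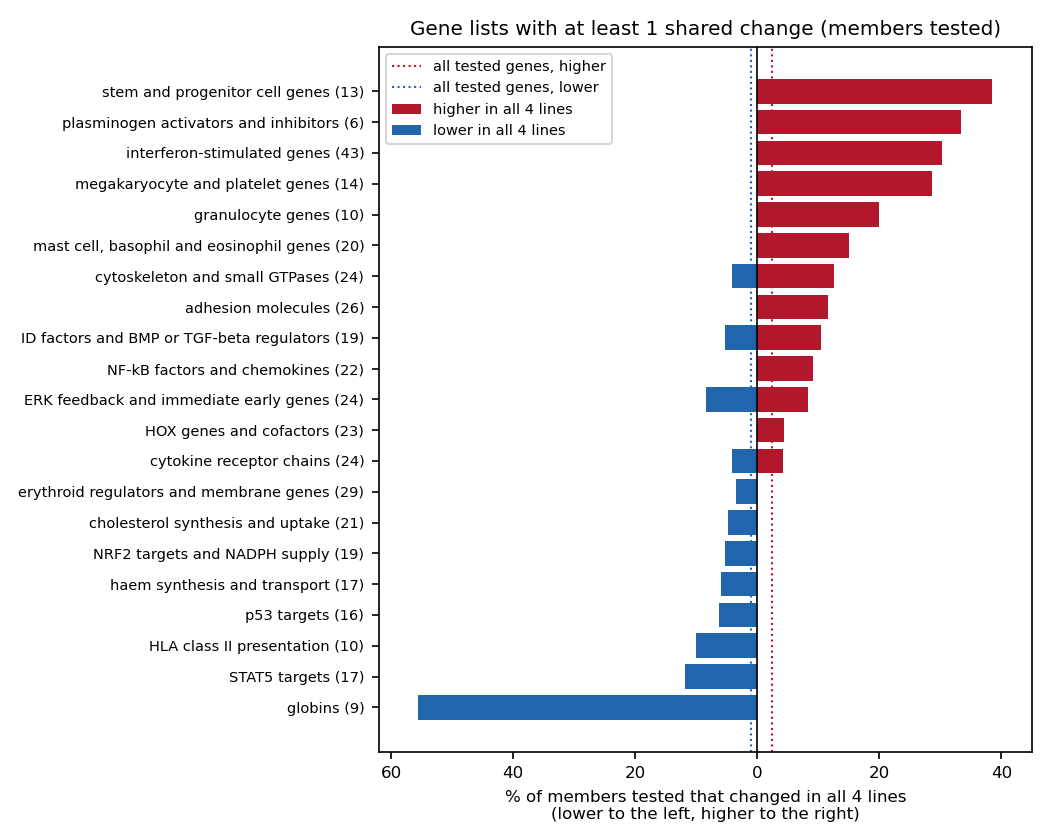
Share of tested members that rose (right) or fell (left) in all 4 edited lines, for lists of at least 5 tested members with at least 1 such change. Numbers in brackets are members tested, and dotted lines mark the share over all tested genes, 2.35% for rises and 1.04% for falls.

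Part of the interferon-stimulated genes rose in all 4 lines. Of 43 tested, 13 rose in all 4 lines (30.2%, against 2.35% of tested genes) and 0 fell. Another 14 were higher in every line without meeting the criteria, and the list median was 0.87. Over all tested symbols, 33.2% were higher in every line whatever the p. The 13 were IFI6, OAS1, OAS3, IFI44, IFI44L, IRF7, ISG15, IFIT1, IFIT5, IRF9, USP18, IFIH1 and TRIM22. IFI44 lay between 21.3 and 103 TPM in the 12 edited libraries (median 43.6), against 8.39, 13.7 and 7.21 TPM in the Parental libraries, and rose by 2.14 ± 0.13 (adjusted p = 3.33e-08). OAS3, a sensor of double-stranded RNA, lay between 2.53 and 18.7 TPM in the 12 edited libraries (median 5.49), against 0.9, 0.38 and 0.56 TPM in the Parental libraries, a rise of 2.23 ± 0.19 (adjusted p = 5.52e-07). OAS1 was listed at 0 in all 3 Parental libraries and lay at 1.07 to 21.6 TPM (median 7.09) in the edited libraries, so no fold change is given.

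IRF7, the factor that amplifies interferon gene transcription, lay between 16.8 and 25 TPM in the 12 edited libraries (median 21.9), against 7.19, 7.4 and 9.38 TPM in the Parental libraries. Its rise of 1.32 ± 0.09 (adjusted p = 1.13e-07) was similar in size across lines, at 1.41 in IDH1R132H, 1.44 in IDH2R140Q, 1.11 in IDH2R172K and 1.33 in IDH2R140W. IFI44L lay at 0.94 to 22.2 TPM (median 3.13) in edited libraries and 0.04, 0 and 0.33 TPM in Parental libraries, a rise of 2.19 ± 0.17 (adjusted p = 3.01e-07) that was lost with a pseudocount of 5. For IFI6, IFI44, IFI44L, OAS1 and OAS3 the mean was highest in IDH2R140Q and lowest in IDH1R132H. The list did not move as a whole, since IFITM1, IFITM2, IFITM3, BST2 and RSAD2 were not raised in all 4 lines, and the summed TPM of the 43 genes overlapped, at 2016 to 3360 in edited libraries and 2423 to 2553 in Parental libraries. With a pseudocount of 5, 7 of the 43 rose.

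Upstream windows of 3 of these genes are printed because the interferon response element is present in most of the group. The motif GAAANNGAAA, on either strand of the 250 bases before the gene start, was found in 8 of the 10 shared rises with a RefSeq window (80.0%) and in 14 of 22 tested interferon genes that did not change in all 4 lines (63.6%). It was found in 3.38% of tested genes with a window, 7.56% of all 238 shared rises with one and 3.23% of the 93 shared falls with one. Overlapping matches were counted separately, and the capitals mark them. The windows, from RefSeq on GRCh38.p14, are chr1:27672193-27672442 on the minus strand for IFI6, chr1:78620198-78620447 on the plus strand for IFI44L and chr12:112938224-112938473 on the plus strand for OAS3. A match is a stretch of letters and not a measured binding site.
IFI6: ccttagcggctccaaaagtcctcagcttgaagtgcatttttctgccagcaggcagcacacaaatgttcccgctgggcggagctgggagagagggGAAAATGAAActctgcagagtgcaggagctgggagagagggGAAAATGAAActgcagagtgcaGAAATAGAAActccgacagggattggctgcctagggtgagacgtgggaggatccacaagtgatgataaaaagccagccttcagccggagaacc
IFI44L: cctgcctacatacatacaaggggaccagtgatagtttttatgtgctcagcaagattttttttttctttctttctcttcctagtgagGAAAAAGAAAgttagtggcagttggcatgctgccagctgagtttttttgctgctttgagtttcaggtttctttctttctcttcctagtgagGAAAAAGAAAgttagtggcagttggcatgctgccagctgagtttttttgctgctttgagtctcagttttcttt
OAS3: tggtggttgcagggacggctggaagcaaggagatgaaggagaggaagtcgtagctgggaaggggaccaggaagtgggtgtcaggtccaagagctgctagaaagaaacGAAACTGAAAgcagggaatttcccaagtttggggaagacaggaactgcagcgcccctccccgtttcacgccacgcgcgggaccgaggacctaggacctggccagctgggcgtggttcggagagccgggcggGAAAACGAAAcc

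**Figure D4:**
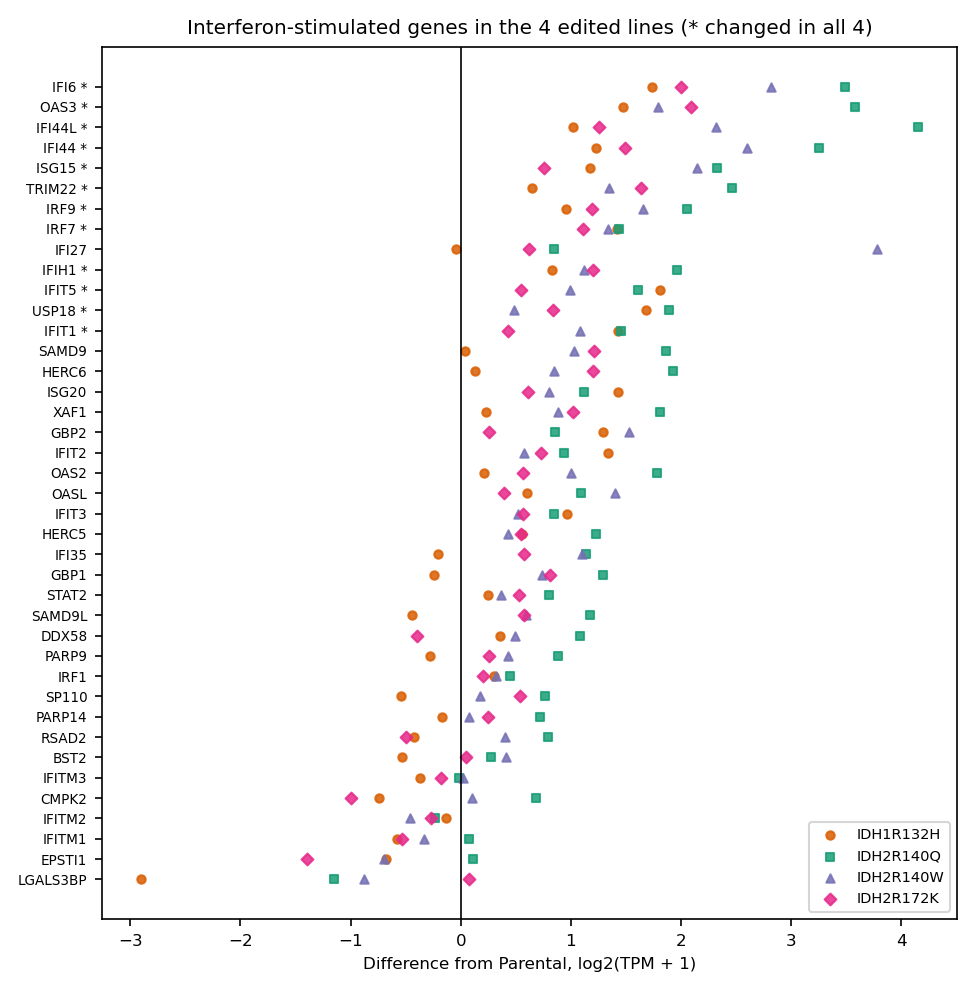
Difference of each edited line from Parental on the log2(TPM + 1) scale for most of the interferon-stimulated genes tested, ordered by the mean of the 4 lines, without OAS1 and MX2, which were listed at 0 in Parental. Each symbol is 1 line, asterisks mark the genes that rose in all 4, and IDH2R140Q lies furthest right for most of them.

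Among HLA and inflammatory genes, IFI30 fell and CCL2 and IL8 rose in all 4 lines. Of 8 HLA class I genes and their loading factors, 0 rose and 0 fell, with HLA-B higher in every line by 0.31 to 3.06. Of 10 HLA class II genes, IFI30, a lysosomal reductase of antigen processing, fell in all 4 lines (10%, against 1.04% of tested genes) and 0 rose. IFI30 lay between 18.7 and 56.8 TPM in the 12 edited libraries (median 38.5), against 80.7, 83.1 and 85.8 TPM in the Parental libraries, a difference of -1.21 ± 0.06 (adjusted p = 1.78e-09) that missed the 2-fold mean without IDH1R132H. Of 22 NF-kB factors and chemokines, CCL2 and CXCL8, listed as IL8, rose (9.09%, against 2.35% of tested genes) and 0 fell. CCL2, a chemokine for monocytes, lay between 3.99 and 74.5 TPM in the 12 edited libraries (median 22.9), against 3.7, 2.23 and 1.96 TPM in the Parental libraries, and its rise of 2.65 ± 0.14 (adjusted p = 5.76e-09) was 2.78 in IDH1R132H, 0.76 in IDH2R140Q, 2.75 in IDH2R172K and 4.33 in IDH2R140W. IL8 rose by 1.27 ± 0.13 (adjusted p = 4.47e-06). It missed the criteria without the IDH2R140W line, with a pseudocount of 5, under quantile normalisation and with the 12 edited libraries as one group.

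Rises in all 4 lines among adhesion and matrix genes included CD44, osteopontin, integrin beta-3 and SERPINE2. Of 26 adhesion genes, CD44, SPP1 and ITGB3 rose in all 4 lines (11.5%) and 0 fell. CD44, the hyaluronan receptor, was the most abundant gene named here among the rises and lay between 407 and 1217 TPM in the 12 edited libraries (median 895), against 222, 149.9 and 212 TPM in the Parental libraries. The libraries did not overlap, and the rise of 2.12 ± 0.11 (adjusted p = 6.45e-09) was smallest in IDH2R140W, at 1.43. SPP1, osteopontin, a secreted ligand of CD44 and integrins, lay between 10.3 and 35.4 TPM in the 12 edited libraries (median 16.9), against 5.97, 2.53 and 2.47 TPM in the Parental libraries, a rise of 2.07 ± 0.17 (adjusted p = 5.53e-07). Of 6 genes of plasminogen activators and their inhibitors, 2 rose in all 4 lines (33.3%), SERPINE2 among them, and 0 fell. With a pseudocount of 5, 1 of the 6 rose. PLAU, the activator urokinase, had no common sign, and its receptor PLAUR differed by 0.49 (adjusted p = 8.90e-05).

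Of 19 genes of ID factors and BMP or TGF-beta regulation, BMP6 and LTBP1 rose and ID1 fell in all 4 lines. BMP6, a BMP ligand, lay between 6.47 and 44.4 TPM in the 12 edited libraries (median 19.6), against 4.74, 3.49 and 3.74 TPM in the Parental libraries, and rose by 2.02 ± 0.11 (adjusted p = 5.82e-09). LTBP1, which holds latent TGF-beta in the matrix, lay between 2.18 and 37.2 TPM in the 12 edited libraries (median 13.1), against 1.73, 1.25 and 1.25 TPM in the Parental libraries, and rose by 2.40 ± 0.11 (adjusted p = 2.28e-09). Both rose least in IDH2R140W. Of 24 genes of the cytoskeleton and its small GTPases, CAPG, ZYX and TPM1 rose and RHOB fell. CAPG, an actin-capping protein, averaged 82.4 TPM in IDH1R132H, 72 in IDH2R140Q, 93.5 in IDH2R172K and 73.5 in IDH2R140W, against 28, 31.6 and 19 TPM in Parental libraries, a rise of 1.60 ± 0.11 (adjusted p = 7.54e-08) that did not differ among the lines at an adjusted p of 0.05 (F test, 0.0965). ZYX, zyxin of focal adhesions, lay between 383 and 815 TPM in the 12 edited libraries (median 579), against 286, 207 and 269 TPM in the Parental libraries, and rose by 1.21 ± 0.08 (adjusted p = 3.58e-08). TPM1, a tropomyosin, differed by 1.15 ± 0.06 (adjusted p = 7.12e-09), and fell short of the criteria under median-ratio scaling. RHOB, a small GTPase, averaged 0.0433 TPM in IDH1R132H, 0.6 in IDH2R140Q, 11 in IDH2R172K and 2.47 in IDH2R140W, against 16.5, 13.6 and 17.2 TPM in Parental libraries. Its fall missed the criteria without Parental replicate 3 and with a pseudocount of 0.1.

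Metabolic and growth programmes held few shared changes. MGST1 and FDXR fell, with 0 rises in their lists, and of 21 genes of cholesterol synthesis and uptake 1 fell (4.76%, against 1.04% of tested genes) and 0 rose, with a list median of -0.32. MGST1, a microsomal glutathione transferase, was the fall among 19 NRF2 targets and NADPH enzymes and lay between 5.49 and 52.1 TPM in the 12 edited libraries (median 26.9), against 88.2, 119 and 94.3 TPM in the Parental libraries, a difference of -2.23 ± 0.11 (adjusted p = 4.61e-09). FDXR, ferredoxin reductase, was the fall among 16 p53 targets and differed by -1.13 ± 0.08 (adjusted p = 1.37e-07), which was under 2-fold without the IDH2R140Q line. No gene met the criteria in either direction among 30 ATF4 targets and tRNA synthetases, 11 genes of fatty acid synthesis, 25 of glycolysis and hypoxia, 13 mitochondrially encoded genes, 73 ribosomal protein genes, 23 of ribosome biogenesis, 30 of mitosis, 28 of DNA replication, 20 of lysosomes and 6 metallothionein genes. No alternative moved more than 2 genes of any of these lists past the criteria in either direction. Over all tested genes 2.35% rose and 1.04% fell, and at those shares lists of this size would hold few such genes or none.

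Markers of the cell line and of other cells were checked in the same libraries. Of 12 markers of TF-1 cells, 9 were tested, CD34 rose in all 4 lines, 0 fell, and the 3 others were the entries listed at 0. Their summed level was 1174 to 1681 TPM in edited libraries and 876 to 984 TPM in Parental libraries. Of 10 lymphocyte markers 4 reached the filter, with CD3D at 0.45 to 56.7 TPM (median 19.4) in edited libraries and 68.4 ± 12.4 TPM in Parental libraries (SD, n = 3), and 0 changed in all 4 lines. Of 8 fibroblast markers 1 reached it, with a summed level of 0.27 to 7.63 TPM in edited libraries and 1.69 to 2.02 TPM in Parental libraries. Of 8 epithelial markers KRT8 and KRT18 reached it, and their sums overlapped, at 529 to 792 TPM in edited libraries and 609 to 648 TPM in Parental libraries. The part of other cells in the results above was not tested beyond these levels.

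Zinc finger genes on chromosome 19 stood out among the shared rises. This set was chosen after its values were seen, so it is described with no test. Of 220 tested genes whose symbol begins with ZNF and that lie on chromosome 19 in GENCODE release 29, 65 rose in all 4 lines (29.5%) and 0 fell, 178 were higher in every line whatever the p (against 33.2% of all tested symbols), and the median difference was 0.76. Of 204 ZNF genes elsewhere in the genome, 1 rose (0.49%), and of 839 other genes of chromosome 19, 25 rose (2.98%) and 14 fell (1.67%). Many of the ZNF genes encode KRAB zinc finger proteins, which bind DNA and silence transposable elements, and they lie in clusters of related copies, so reads can be shared between paralogs and values of single genes are uncertain. Near the genes from ZNF627 to ZNF791, some genes of other kinds were also higher in the mean, by 0.87 in ECSIT, 1.43 in TNPO2 and 0.91 in FARSA. Others there were not, such as DNASE2, at -0.10, and KLF1, at -0.42. The part of chromosome position in the ZNF rises was not tested.

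ZNF91, which represses SVA elements, lay between 10.8 and 25 TPM in the 12 edited libraries (median 18.3), against 3.66, 3.58 and 4.03 TPM in the Parental libraries. ZNF439 lay between 5.25 and 16.5 TPM in the 12 edited libraries (median 11.4), against 0.41, 0.5 and 0.97 TPM in the Parental libraries. ZNF43 lay between 7.06 and 27.5 TPM in the 12 edited libraries (median 19.7), against 5.03, 2.32 and 4.77 TPM in the Parental libraries. In all 3 genes every edited library was above every Parental one. The summed level of the 220 genes was 2177 to 3246 TPM in edited libraries and 1752 to 2001 TPM in Parental libraries, with no overlap. The lowest library of each side was the one with the most ribosomal protein RNA, IDH2R140W replicate 3 and Parental replicate 2. Without both, 62 of the genes rose, under median-ratio scaling 48, under quantile normalisation 39 and with a pseudocount of 5, 12. The median difference was 0.83 in IDH1R132H, 0.84 in IDH2R140Q, 0.96 in IDH2R172K and 0.50 in IDH2R140W.

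**Figure D5:**
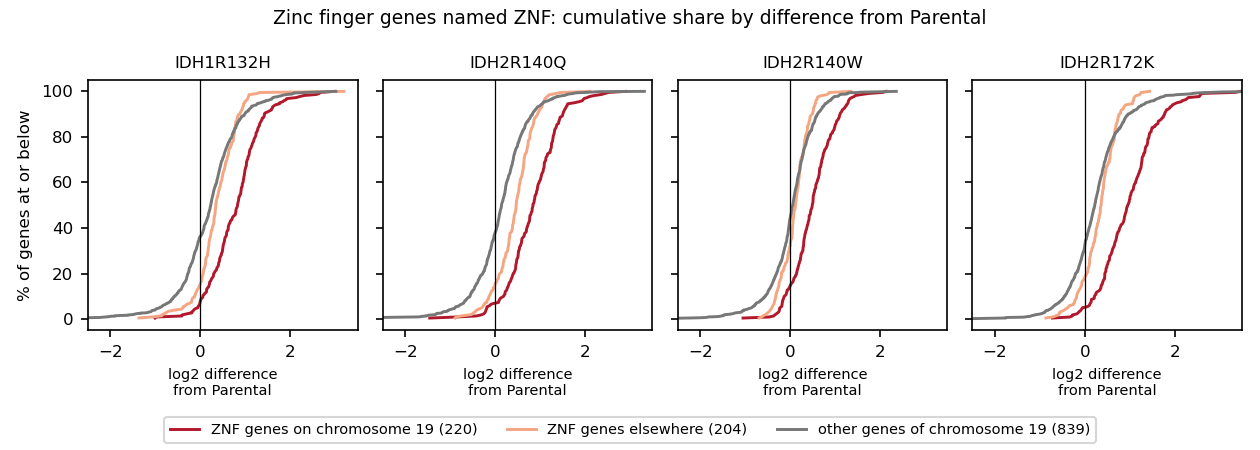
Cumulative share of genes (%) by difference from Parental on the log2(TPM + 1) scale in each edited line, for ZNF genes on chromosome 19, ZNF genes elsewhere and other genes of chromosome 19. In all 4 lines the curve of the first set lies right of the other 2 over most of the range, with medians of 0.50 to 0.96, and axes end short of a few outlying genes.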

How the data were processed

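Libraries of poly(A) RNA, 3 for each of 5 genotypes given by the sample titles, were made with a directional kit from 0.1 to 1 ug of RNA, per the labels' protocols. The authors deposited TPM values in a single table with gene symbols as row names. STAR 2.7.3, HTSeq, RSEM, DESeq2 and the build hg38 are named in the submitters' processing notes, and which annotation release, strand setting or filter was used is not given there or in the labels. TPM keeps no read number, so depth and its precision are unknown, and each value depends on the abundant genes of its library.

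Rows with one symbol were summed (63568 rows, 56624 symbols), and 6 rows with symbols turned into ambiguous dates were left out. Symbols reaching 1 TPM in 3 or more libraries (14881) entered a limma fit on log2(TPM + 1) across the 15 libraries (limma 3.58.1, R 4.3.3), with group means, an intensity trend and Benjamini-Hochberg adjustment. The replicate numbers did not pair libraries, since 1 of 30 same-numbered pairs had deviations correlated above 0.1. GENCODE release 29 matched 13063 symbols (87.8%). The fit was tested on simulated data.

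Members, 45 gene lists and tests were chosen with earlier results of these data known. Genes are named by a rule: IDH1 and IDH2, the 12 largest shared rises and falls by their smallest line difference with at least 10 TPM on the higher side and no overlap, genes at 0 on one side and at least 5 TPM throughout the other, and up to 6 shared members of each list. Members beside a count were named from the lists, and some list members enter only the counts and are not reported here. Alternatives were other pseudocounts, filters and scalings, no trend, library weights, one edited group, a replicate block, a test against a minimum difference, and leaving out libraries, lines or symbols on several rows.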

Additional observations from a re-analysis of the deposited data

Results flagged for a closer look

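For 57 of the 68 named genes that changed in all 4 lines, the size of the change differed between the edited lines by limma's F test. The test compared the 4 edited lines, with the spread taken from all 15 libraries, and was adjusted over all 14881 symbols. Of all symbols, 57.3% passed it. The values in brackets are adjusted p of that F test.

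Among the largest rises and falls they were CTSG (2.67e-06), SERPINE2 (1.57e-04), ADRA2A (4.86e-08), C19orf77 (1.97e-06), ZNF439 (2.31e-04), ITGB3 (8.61e-04), GPR141 (0.0197), IFI6 (1.85e-09), FCER1A (1.65e-08), ZNF91 (0.0195), FAM178B (0.00179), CA2 (1.72e-06), ACPP (4.90e-04), GGT5 (3.23e-05), FGF13 (4.27e-09), FAM83A (6.39e-08), RNASE1 (0.00596), GALNT14 (4.36e-07), DES (6.91e-04) and TGM2 (2.30e-06). FGF13 averaged 0.0167 TPM in IDH2R140Q and 9.44 TPM in IDH1R132H.

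Among cytokine and ERK genes the values were TNFRSF1B (3.50e-04), IL10RA (8.12e-06), ID1 (3.21e-08), SOCS3 (5.31e-06), ETV4 (0.00138) and DUSP4 (4.13e-06). Globins gave HBA1 (1.73e-08), HBA2 (1.53e-08), HBZ (7.30e-09), HBE1 (1.36e-08) and HBQ1 (1.17e-04). HBA1 averaged 119 TPM in IDH1R132H, 191 in IDH2R140Q, 387 in IDH2R172K and 328 in IDH2R140W.

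Other blood lineage genes gave PPBP (2.05e-08), GP1BB (1.17e-06), SELP (3.76e-09), MMP9 (1.14e-10), SIGLEC6 (0.00522), CPA3 (0.00989), MYCN (2.87e-09), CD34 (3.23e-05), GPR56 (3.95e-07) and ERG (0.0203). MMP9 averaged 25.6 TPM in IDH1R132H, 22.8 in IDH2R140Q, 6.41 in IDH2R172K and 2.2 in IDH2R140W.

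Interferon and inflammatory genes gave OAS3 (2.03e-05), OAS1 (4.68e-08), IFI44 (7.16e-07), IFI44L (1.29e-07), IFI30 (1.27e-08), CCL2 (1.26e-08) and IL8 (7.63e-07). Metabolic, adhesion and cytoskeletal genes gave MGST1 (7.30e-09), FDXR (6.86e-07), SPP1 (2.47e-04), CD44 (5.90e-05), BMP6 (6.56e-08), LTBP1 (4.20e-09), TPM1 (3.13e-05), ZYX (1.99e-05) and RHOB (8.39e-10).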

How the results depend on the processing

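No named gene that met the criteria changed sign under any alternative run, and 48 of the 68 named shared genes met the criteria in each alternative in which they were tested, which for a few genes was fewer than all of them. A pseudocount of 0.1 gave 1201 rises and 407 falls in the mean and 286 rises of at least 2-fold in every line. A pseudocount of 5 gave 163 and 98 in the mean, 120 and 78 in all 4 lines, and 24 and 27 at 2-fold in every line. Median-ratio scaling gave 370 falls in the mean and 238 in all 4 lines, and quantile normalisation 389 rises and 369 falls in the mean. Without the IDH2R140W line, 644 genes rose in the other 3 lines, 308 of them at least 2-fold in each. A larger pseudocount shrinks differences of low genes. Leaving out any other line also left 3 lines to pass. It gave 363 rises without IDH1R132H, 313 without IDH2R140Q and 411 without IDH2R172K. The cause of these shifts was not tested. With each library left out in turn, 298 to 403 genes rose and 131 to 163 fell in all 4 lines. The replicate numbers do not pair the libraries, and a replicate block gave 345 rises and 150 falls, 490 of them among the 505. With the 12 edited libraries as one group, 339 rose and 152 fell. Depth is unknown, the libraries per group limit the precision, and low genes depend most on the pseudocount.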

Other observations

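Changed in the mean of the 4 lines but without one sign were 84 genes, and 3 of them with large differences between lines, chosen after their values were seen, are given as values. HBB, the adult beta-globin gene, averaged 1.31 TPM in IDH1R132H, 4.76 in IDH2R140Q, 41.6 in IDH2R172K and 113 in IDH2R140W, against 59.7, 75.6 and 71.8 TPM in the Parental libraries. CDH5, the endothelial cadherin, averaged 12.3 TPM in IDH1R132H, 4.86 in IDH2R140Q, 24.5 in IDH2R172K and 0.47 in IDH2R140W, against 0.92, 0.51 and 0.81 TPM in the Parental libraries. HDC, which makes histamine, averaged 0.62 TPM in IDH1R132H, 2.63 in IDH2R140Q, 109 in IDH2R172K and 5.7 in IDH2R140W, against 1.82, 0.67 and 1.38 TPM in the Parental libraries. The line of opposite sign differed from Parental at an adjusted p under 0.05 for HBB, in IDH2R140W, and not for CDH5 and HDC.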
